A study of Mus musculus with 10 samples.

Results

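Pprc1 encodes PRC, a transcriptional coactivator related to PGC-1alpha, and it is described here with 6 other genes that regulate the making of mitochondria: Ppargc1a, Ppargc1b, Esrra, Nrf1, Gabpa and Tfam. The 7 genes were taken by their Ensembl identifiers from a table of 47333 genes, and all 7 were among the 18024 that passed the filter on low counts. They were chosen by their differences between the genotypes in these same mice, so those differences are given as a description, with no test. Sex was not used to choose them, and male and female mice were compared by a test. Both comparisons come from the same fit and sex is unbalanced between the genotypes, so the sex test is not fully independent of that choice.

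The study sequenced lung RNA (right middle lobe) of 10 mice to measure what changes when Bpifb1 is lost. The product of Bpifb1 is secreted into the lining of the airways. All mice were C57BL/6J, 12 weeks of age, naïve and untreated, and cages on alpha-dri bedding held both genotypes. The KO group had lost Bpifb1 and held 1 male (replicate 1) and 4 females (replicates 2 to 5). The WT group held 2 males (replicates 2 and 3) and 3 females (replicates 1, 4 and 5). The labels do not give the kind of Bpifb1 allele or the origin of the WT mice, and list each mouse as a separate sample, so p-values measure the spread between these 10 samples.

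Mitochondria carry a small genome of their own, but most of their proteins are encoded in the nucleus and imported. The PGC-1 coactivators do not bind DNA themselves: they dock on nuclear receptors such as ERRalpha and on the factors NRF1 and GABP, which bind the promoters of genes for the respiratory chain and for TFAM, the protein that packages and transcribes mitochondrial DNA. PGC-1alpha and PGC-1beta are abundant in tissues rich in mitochondria such as heart and brown fat, whereas PRC is widely expressed and is known as a gene that growth signals induce quickly.

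Each library held 21357452 to 28321361 estimated counts. Bpifb1 was at 0.614 ± 0.462 CPM in the KO group against 59.7 ± 23.6 CPM in the WT group (mean ± SD, n = 5), where CPM is counts per 1000000 counts of the library after TMM scaling, so every library matched its genotype label. KO replicate 5 is labelled female, but its Xist level was 1.78 CPM against 274 to 407 CPM in the other 6 females, and it had 0 counts on Y-linked genes against 2470 to 3441 in the 3 males. Genes called between the sexes, and the counts of the main lists, are therefore also given without that mouse. Marker genes of alveolar type 2 cells (24400 to 30100 CPM in sum) and of club cells (29900 to 39700 CPM) were abundant in every mouse. None of the table's genes that matched the annotation lay on the mitochondrial chromosome, so genes of that chromosome could not be analysed here.

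The promoters below show where the binding words of the DNA-binding members lie in the members themselves. They are the 250 bases before and 50 after the RefSeq start (GRCm38.p6), 5′ to 3′ on the strand of the gene. Capitals mark an 8-base NRF1 word (GCATGCGC) or a 7-base GABP word (CCGGAAG, or CTTCCGG on the other strand), and an ERR word (AAGGTCA or TGACCTT) was searched too. The first 3 hold a word, and Pprc1, which holds none, is shown beside them.
Tfam (chr10:71237995-71238294, minus strand, GABP word from base -47): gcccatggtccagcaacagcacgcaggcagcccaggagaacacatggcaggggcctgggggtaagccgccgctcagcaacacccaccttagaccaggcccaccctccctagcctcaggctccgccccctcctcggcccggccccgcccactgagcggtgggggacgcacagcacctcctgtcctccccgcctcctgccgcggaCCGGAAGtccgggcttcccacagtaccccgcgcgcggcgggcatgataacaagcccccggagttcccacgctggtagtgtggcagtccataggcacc
Gabpa (chr16:84834874-84835173, plus strand, GABP word on the reverse strand from base -93): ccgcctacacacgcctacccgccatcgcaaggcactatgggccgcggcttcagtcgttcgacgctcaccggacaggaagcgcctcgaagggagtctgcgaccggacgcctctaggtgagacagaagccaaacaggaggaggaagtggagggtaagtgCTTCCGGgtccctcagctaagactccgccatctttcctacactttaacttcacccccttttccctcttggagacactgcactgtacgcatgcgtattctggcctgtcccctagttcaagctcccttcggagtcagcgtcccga
Esrra (chr19:6921759-6922058, minus strand, NRF1 word from base -34): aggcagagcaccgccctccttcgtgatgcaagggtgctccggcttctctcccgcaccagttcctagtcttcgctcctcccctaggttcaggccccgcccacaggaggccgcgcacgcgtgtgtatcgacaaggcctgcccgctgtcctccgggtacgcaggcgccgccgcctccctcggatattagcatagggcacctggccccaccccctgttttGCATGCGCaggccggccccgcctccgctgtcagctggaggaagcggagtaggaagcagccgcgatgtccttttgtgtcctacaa
Pprc1 (chr19:46056289-46056588, plus strand, no word): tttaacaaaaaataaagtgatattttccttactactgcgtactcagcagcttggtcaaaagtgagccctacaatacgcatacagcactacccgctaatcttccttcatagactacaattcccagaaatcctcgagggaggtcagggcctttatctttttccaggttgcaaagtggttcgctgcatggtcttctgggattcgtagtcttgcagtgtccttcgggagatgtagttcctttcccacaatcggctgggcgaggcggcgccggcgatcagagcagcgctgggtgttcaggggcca
Of the 7 members 6 matched the table, with 7 promoters, and those of Ppargc1a and Nrf1 (2 promoters) held none of the words. The Pprc1 window lies inside the longer gene that GENCODE annotates. The GENCODE genes of Tfam and Gabpa also begin upstream of the RefSeq starts, at 71238280 and 84834925. Their GABP words thus lie inside the annotated genes. In all 32851 promoters of the same length the NRF1 word stood in 2.71%, the GABP word in 8.86% and the ERR word in 4.72%. In promoters of tested genes the shares were 4.43%, 15.2% and 3.47%. A match describes the letters and does not show that a factor binds, and a window without a match says only that these letters are not in it.

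The GABP word stood in a larger share of promoters of several mitochondrial gene lists than of promoters at large. It stood in 45.0% of the promoters of cytochrome c and cytochrome oxidase assembly genes and 41.7% of those for fusion, fission and mitophagy. For mitochondrial protein import it was 40.0%, for mitochondrial DNA replication and transcription 38.5% and for mitochondrial RNA processing 38.1%. For the mitochondrial ribosome it was 34.7% (26 of 75), and for translation factors and tRNA synthetases 26.9%. In promoters of all tested genes it stood in 15.2%, and in those of nucleolar ribosome biogenesis in 21.1%. It stood in 12.5% for antioxidant defence, 11.1% for fatty acid oxidation and 7.84% for the PGC-1 partners. The NRF1 word ran from 0% of the promoters for mitochondrial RNA processing to 16.7% for fatty acid oxidation (3 of 18), beside 4.43% for tested genes. It stood in 10.7% for the mitochondrial ribosome (8 of 75). The ERR word ran from 0%, as for antioxidant defence, to 14.3% for protein import (5 of 35), beside 3.47% for tested genes. All these shares describe sequence and use no measurement from the mice.

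Measured per length of exon, Pprc1 was the PGC-1 coactivator with the highest mRNA level in the lung. The levels that follow are counts per kilobase of exon per 1000000, given as mean ± SD over 10 mice. Gabpa stood highest at 22.0 ± 2.13, followed by Esrra at 18.0 ± 1.58, Tfam at 14.1 ± 1.02 and Pprc1 at 13.9 ± 2.24. Nrf1 was at 7.88 ± 0.347, Ppargc1a at 2.14 ± 0.296 and Ppargc1b at 1.11 ± 0.221. Gabpa exceeded Esrra in 10 of 10 mice although their ranges over mice overlapped, so their order held within every mouse. Tfam exceeded Pprc1 in only 6 of 10 mice, so Tfam and Pprc1 do not differ beyond their spread. The ranges of every other pair of neighbours were separate. Among all tested genes 55.9% had a lower level than Pprc1, 18.1% a lower level than Ppargc1a and 10.3% a lower level than Ppargc1b.

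**Figure D1:**
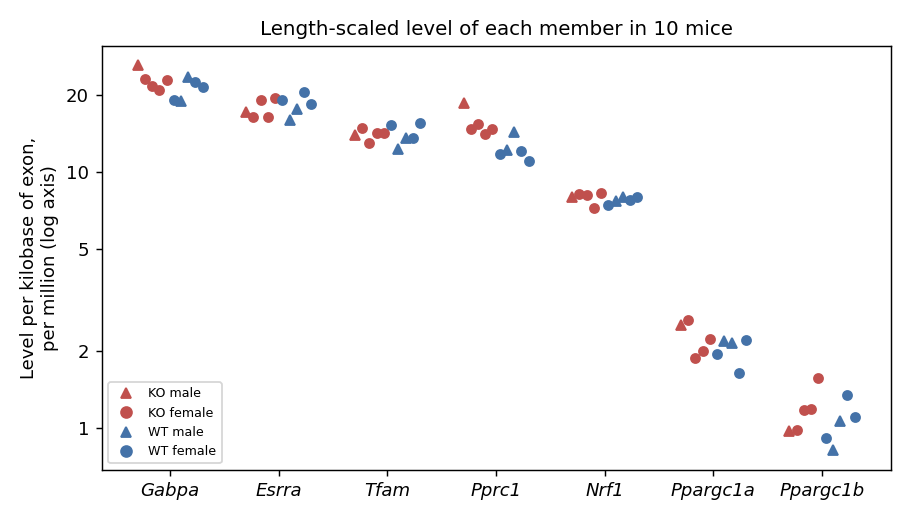
Level of each member per kilobase of exon per 1000000 (log axis) in each of 10 mice; triangles are males, circles females, red KO and blue WT. Gabpa is highest at 22.0 and Ppargc1b lowest at 1.11 on average, and the Tfam and Pprc1 points overlap.

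Of the summed level of the 3 PGC-1 genes per length, Pprc1 made up 81.8% ± 1.99 in the KO group and 79.9% ± 1.81 in the WT group (SD, n = 5), with a range over the 10 mice of 76.8% to 84.2%. Its level was 4.98 to 8.19 times that of Ppargc1a and 8.99 to 19.2 times that of Ppargc1b in the same mouse. In lung lobes, as in any bulk tissue, a different number of cells of a type and a different amount of RNA per cell cannot be told apart. Markers of tissues rich in PGC-1alpha were present at varying levels: 10 cardiac muscle genes summed to 763 to 1300 CPM in KO and 494 to 1290 CPM in WT mice, and 6 brown fat genes to 9.99 to 14.1 and 9.25 to 15.4 CPM, with Elovl3 at or under 3 counts in every mouse. Their part in the Ppargc1a level was not tested.

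Pprc1 (ENSMUSG00000055491; GRCm38 chromosome 19, 46044886 to 46072915, plus strand) was at 46.4, 37.4, 39.6, 37.1 and 36.3 CPM in KO replicates 1 to 5. In WT replicates 1 to 5 it was at 32.3, 35.7, 36.7, 30.8 and 28.7 CPM. The male KO mouse was highest of all, the female WT mice were the 3 lowest, and the groups overlapped in 1 pair only, since male WT replicate 3 lay above female KO replicate 5. KO mice averaged 39.4 ± 4.10 CPM, against 32.8 ± 3.37 CPM for WT mice (SD, n = 5). The fitted log2 fold change of KO against WT, with sex in the model, was 0.32 (SE 0.0507, a fold of 1.24), and it stayed between 0.26 and 0.35 over 18 alternative settings.

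**Figure D2:**
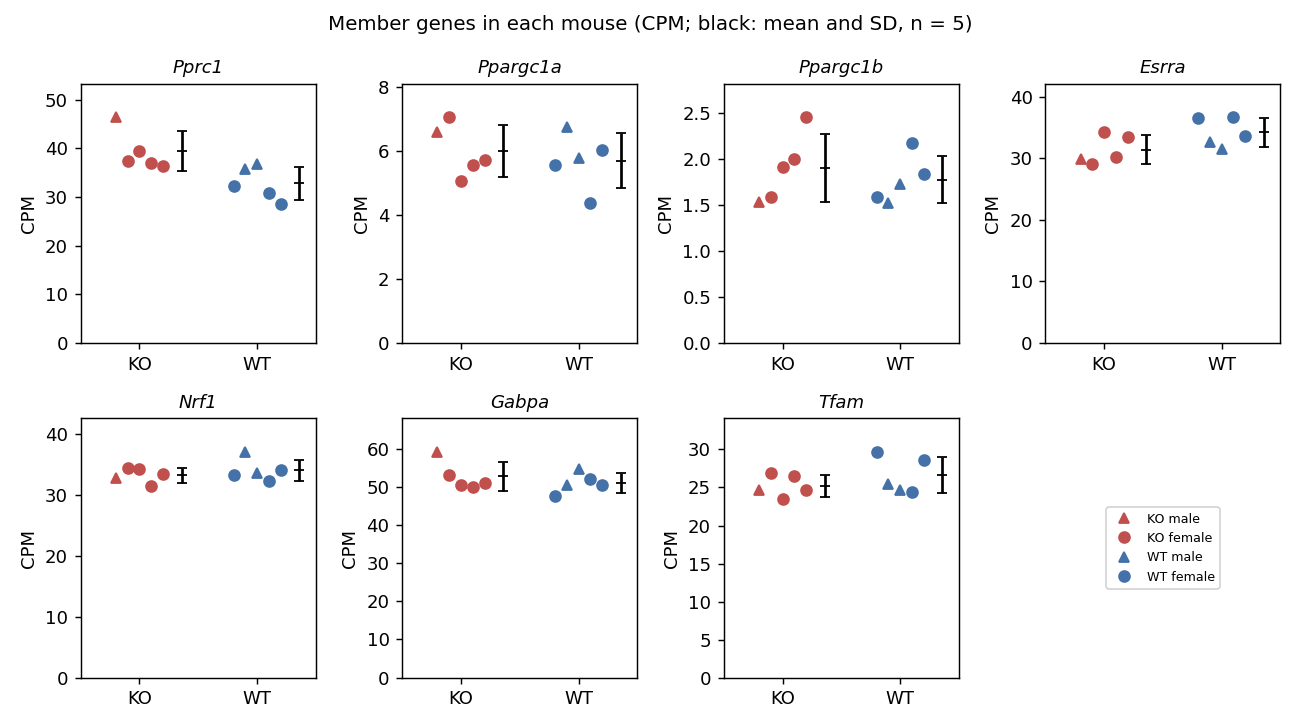
CPM of each member in every mouse, with KO mice in red and WT mice in blue, males as triangles and females as circles; black marks give the mean and SD of 5 mice. In the Pprc1 panel the KO mice lie between 36.3 and 46.4 CPM and the WT mice between 28.7 and 36.7 CPM.

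Pprc1 was higher in males than in females. In WT mice the 2 males were at 36.2 ± 0.692 CPM and the 3 females at 30.6 ± 1.83 CPM (SD). In KO mice the male was at 46.4 CPM and the 4 females at 37.6 ± 1.37 CPM. Within each genotype every male was thus above every female. With genotype in the model the log2 fold change of males against females was 0.27 (SE 0.0547, a fold of 1.21), with an adjusted p of 0.0452 by the quasi-likelihood test of edgeR, Benjamini-Hochberg adjusted over 18024 genes. An exact two-sided permutation test of the log2 CPM over the 50 ways to assign sex within genotype gave p = 0.02, the smallest it can give.

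The size of the Pprc1 sex difference was stable and its call was not. It stayed between 0.20 and 0.29 over 17 alternatives, with adjusted p from 0.00292 (DESeq2) to 0.528 (no genotype term), and 6 of them called it. Leaving out 1 mouse at a time gave 0.25 to 0.29 and kept the call in 1 of 10 cases. Without KO replicate 5, whose Xist level goes against its female label while its lack of Y-linked counts does not, it was 0.26 (edgeR adjusted p 0.0705). Without KO replicate 1, the only KO male, it was 0.25 (edgeR adjusted p 0.265). With 1 male among the KO mice, no genotype by sex interaction was fitted.

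The other coactivators were low and did not separate the groups. Ppargc1a (ENSMUSG00000029167; chromosome 5, 51454250 to 51567726, minus strand), which encodes PGC-1alpha, was at 6.61, 7.06, 5.07, 5.55 and 5.73 CPM in KO replicates 1 to 5. Its WT values were 5.58, 6.77, 5.78, 4.39 and 6.04 CPM. The highest mouse was a KO female and the lowest a WT female, and most values of the groups overlapped. KO against WT gave a log2 fold change of 0.12 (SE 0.12), which was 0.04 with offsets for exon length and GC content or without KO replicate 2, 0.03 without WT replicate 4 and 0.18 without WT replicate 5. For males against females it was 0.20 (SE 0.129), with an adjusted p of 0.49 by edgeR's quasi-likelihood test, and 0.14 without WT replicate 4.

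Ppargc1b (ENSMUSG00000033871; chromosome 18, 61298136 to 61400431, minus strand), which encodes PGC-1beta, rested on only 32 to 62 counts per mouse. It was at 1.54, 1.59, 1.91, 2.00 and 2.45 CPM in KO replicates 1 to 5 and at 1.59, 1.52, 1.73, 2.17 and 1.83 CPM in WT replicates 1 to 5. The groups overlapped over nearly their whole range. The log2 fold change of KO against WT was 0.04 (SE 0.168), and it ran from -0.05 (without KO replicate 5) to 0.11 (without WT replicate 4) over the alternatives, so it has no steady sign. The 3 males were at 1.60 ± 0.114 and the 7 females at 1.93 ± 0.310 CPM (SD), a log2 fold change of -0.26 (SE 0.187) with an edgeR adjusted p of 0.543.

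Esrra (ENSMUSG00000024955; chromosome 19, 6910977 to 6921813, minus strand), which encodes the orphan nuclear receptor ERRalpha, had the opposite sign to Pprc1 in both comparisons. KO replicates 1 to 5 were at 29.9, 29.1, 34.3, 30.2 and 33.5 CPM. WT replicates 1 to 5 were at 36.6, 32.6, 31.5, 36.6 and 33.6 CPM. WT females 1 and 4 were highest and KO mice 1, 2 and 4 lowest, with the other 5 mice mixed between them. The log2 fold change was -0.15 (SE 0.059) for KO against WT. It was -0.12 (SE 0.0648) for males against females, with an edgeR adjusted p of 0.395.

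Nrf1 (ENSMUSG00000058440; chromosome 6, 30047988 to 30153458, plus strand), which encodes nuclear respiratory factor 1, was the steadiest member, with a within-genotype SD of 0.0635 on the log2 scale against 0.146 for Pprc1. It was at 32.8, 34.3, 34.2, 31.4 and 33.4 CPM in KO replicates 1 to 5 and at 33.2, 37.0, 33.6, 32.3 and 34.1 CPM in WT replicates 1 to 5. Only WT replicate 2 stood above the range of the KO mice. KO against WT gave a log2 fold change of -0.03 (SE 0.0525), or -0.13 with the length and GC offsets and 0.0057 without KO replicate 1. For males against females it was 0.04 (SE 0.0572, adjusted p 0.77 by edgeR), and it was 0.0873 without KO replicate 1 and turned sign with the offsets or without WT replicate 2.

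Gabpa (ENSMUSG00000008976; chromosome 16, 84834925 to 84863779, plus strand) encodes the DNA-binding subunit of GABP. KO replicates 1 to 5 were at 59.1, 53.1, 50.5, 49.9 and 51.0 CPM, and WT replicates 1 to 5 at 47.5, 50.4, 54.6, 52.0 and 50.6 CPM. The male KO mouse was highest, as for Pprc1, followed by male WT replicate 3, and the other values of the groups overlapped. KO against WT gave a log2 fold change of 0.07 (SE 0.0503), which was 0.0137 with the length and GC offsets, 0.0309 without KO replicate 1 and 0.0466 without WT replicate 2. Males were at 54.7 ± 4.34 and females at 50.7 ± 1.74 CPM (SD, n = 3 and 7), a log2 fold change of 0.13 (SE 0.0546) with an edgeR adjusted p of 0.298, and 0.0685 without KO replicate 1.

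Tfam (ENSMUSG00000003923; chromosome 10, 71225464 to 71238280, minus strand), whose promoter holds the GABP word shown above, was at 24.6, 26.9, 23.5, 26.5 and 24.6 CPM in KO replicates 1 to 5. In WT replicates 1 to 5 it was at 29.6, 25.5, 24.7, 24.4 and 28.6 CPM. WT females 1 and 5 stood above all KO mice and the other 3 WT mice lay within the KO range. The log2 fold change was -0.09 (SE 0.066) for KO against WT, -0.05 without WT replicate 1 and -0.14 without WT replicate 4. For males against females it was -0.10 (SE 0.0725), with an edgeR adjusted p of 0.566, and -0.06 without WT replicate 1.

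**Figure D3:**
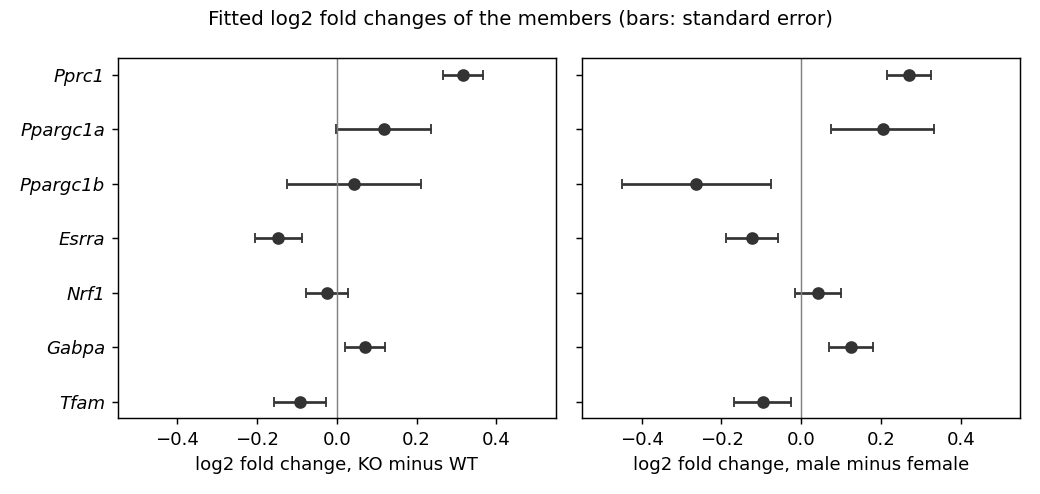
Fitted log2 fold changes of the 7 members for KO minus WT (left) and male minus female (right); bars are standard errors. Pprc1 has the highest value on both sides, 0.32 and 0.27, and Esrra and Tfam lie below 0 on both.

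Between the sexes edgeR and DESeq2 each called 1 of 7 members, Pprc1, beside 0.583% of tested genes for edgeR and 2.42% for DESeq2. At an unadjusted p under 0.05 in edgeR 2 of 7 members, Pprc1 and Gabpa, were higher in males, beside 7.34% of all tested genes, and 0 were lower, beside 7.79%. The 2 became 1 without KO replicate 5 and 1 without KO replicate 1. The exact permutation test within genotype gave Gabpa p = 0.06, and 0.08 to 0.46 for the other 5 members.

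The genes next to Pprc1 on the chromosome were not called in either comparison. Ldb1, on the minus strand, overlaps Pprc1 over 329 bases, and the sources used here do not say whether counting used the strand, so reads there could be counted for either gene. Ldb1 was at 172 ± 4.87 CPM in the KO group against 172 ± 3.69 CPM in the WT group (mean ± SD, n = 5), with log2 fold changes of -0.01 for genotype and -0.02 for sex. Nolc1, a nucleolar protein gene that starts 2947 bases after Pprc1 ends, was at 50.2 ± 3.25 and 48.0 ± 1.96 CPM. Its log2 fold change was 0.08 (SE 0.0511) for genotype and 0.10 (SE 0.0555) for sex, with edgeR adjusted p of 0.413 and 0.448. Esrra overlaps Trmt112 over 73 bases and Gabpa overlaps Atp5j over 701, both on the opposite strand, with the same limit.

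Pairs of members gave correlations of both signs over the mice. Of their 21 pairs, correlated over the log2 CPM of 10 mice, none passed Benjamini-Hochberg adjustment (lowest adjusted p 0.269, permutation test). The permutation moved mice across the genotypes, so its p-values also carry the genotype differences by which the members were chosen. Ppargc1a and Esrra had r = -0.707 (permutation p 0.0212) and Spearman's rho -0.697. Their r was -0.404 without the 2 mice farthest from the median of Ppargc1a, and -0.737 once the genotype means were removed. Ppargc1a and Ppargc1b had r = -0.656 (permutation p 0.0383) and rho -0.685, with r = -0.532 without 2 mice and -0.725 with genotype means removed. Pprc1 and Esrra, which had opposite signs between the genotypes, had r = -0.632 (permutation p 0.0466) and rho -0.648. Their r was -0.671 without 2 mice, and -0.399 once the genotype means were removed. Pprc1 and Gabpa had r = 0.638 (permutation p 0.0512) and rho 0.358, and r = 0.644 with genotype means removed. Without 2 mice r was 0.25, so that relation rests on those mice.

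Among 12876 genes with a mean of at least 5 CPM, the 5 whose log2 CPM over the 10 mice was most like that of Pprc1 were Tnfrsf10b (r = 0.936, rho 0.842), Tead4 (r = 0.923, rho 0.855), Diras2 (r = 0.923, rho 0.818), Dnajb4 (r = 0.921, rho 0.758) and Prkch (r = 0.92, rho 0.915). These are the highest of many values and carry no test. The log2 fold changes of the 5 for KO against WT were 0.535, 0.371, 0.364, 0.311 and 0.195, so r includes the genotype difference. With genotype means removed r was 0.872, 0.843, 0.855, 0.894 and 0.859. Dnajb4, which encodes a chaperone of the HSP40 family, was itself called higher in males, with 0.36 on the log2 scale (SE 0.0576, adjusted p 0.0141 by edgeR). Its adjusted p in edgeR was 0.0181 without KO replicate 5 and 0.177 without KO replicate 1, and 15 of 17 alternatives called it. For Ppargc1a the 5 were Rsl1 (r = 0.963, rho 0.952), Dbf4 (r = 0.893), 4930453N24Rik (r = 0.885), Il2rb (r = 0.885) and Nepro (r = 0.884), all other genes than those most like Pprc1.

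Heat shock chaperones were higher in males, and immediate early genes lay on the higher side in KO mice, the groups in which Pprc1 was high. The 10 heat shock chaperones, which refold damaged proteins, summed to between 1650 and 2700 CPM in the 3 males, above all 7 females, whose sums ran from 819 to 1330 CPM. In males 8 of 10 were called higher by edgeR and all 10 were higher at an unadjusted p under 0.05, beside 7.34% of all tested genes, and their median log2 fold change was 0.99. Without KO replicate 5 the edgeR calls were again 8, but without KO replicate 1 they were 0, with all 10 still higher at an unadjusted p under 0.05. Between the genotypes 7 of 10 were higher in KO at an unadjusted p under 0.05, beside 8.92% of all tested genes, with ranges of 1010 to 2700 in KO and 819 to 2430 CPM in WT mice. The 7 became 5 without KO replicate 1 or with offsets for length and GC content. DESeq2 called 5 of the chaperones higher in KO, beside 253 of 18024 genes. The 13 immediate early genes, which cells switch on within minutes of a stimulus, summed to 1210 to 1430 CPM in KO and 758 to 1150 CPM in WT mice. Of these 13, 7 were higher in KO at an unadjusted p under 0.05, beside the same 8.92%, or 5 without KO replicate 5. EdgeR called 0 and DESeq2 called 4 higher in KO, beside the same 253 of 18024 genes. Their median log2 fold change between the sexes was near 0. Blood cell genes were higher in males, 13100 to 19500 against 11500 to 14100 CPM, with 6 of 6 at an unadjusted p under 0.05 and 0 called by edgeR. That count was also 6 without KO replicate 5, and 3 without WT replicate 2. DESeq2 called 4 of the blood cell genes higher in males, beside 279 of 18024 genes. The part of any of these in the Pprc1 differences was not tested.

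**Figure D4:**
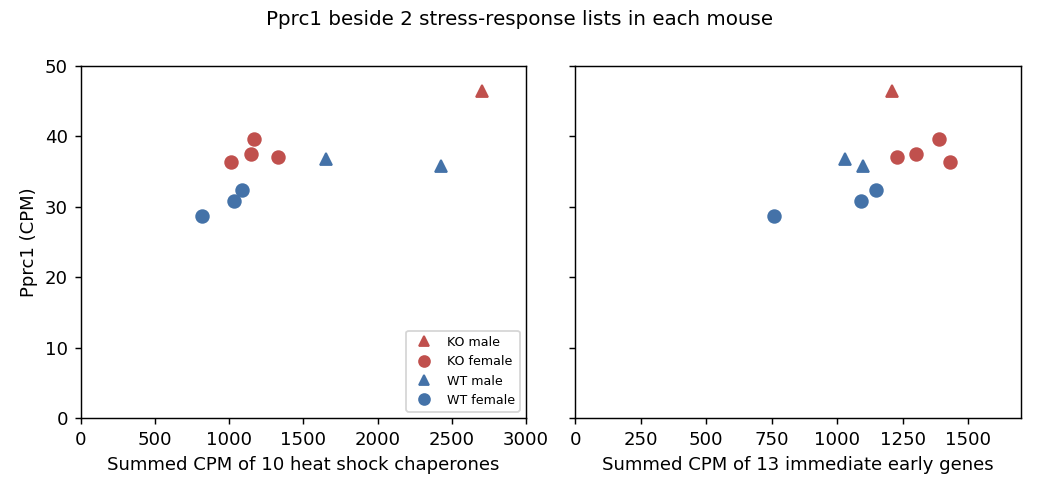
Pprc1 (CPM) in each mouse against the summed CPM of 10 heat shock chaperones (left) and 13 immediate early genes (right); red is KO, blue WT, triangles males. The 3 males lie at 1650 to 2700 CPM of chaperones, and the 5 KO mice at 1210 to 1430 CPM of immediate early genes.

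The wider pathway was read from 11 lists of genes, on the regulation, making or work of mitochondria and, in 1 list, on nucleolar ribosome biogenesis. Between the genotypes edgeR called 0 genes of any list at an adjusted p under 0.05, beside 0.0222% of all tested genes, and DESeq2 called 3 in all, beside 1.92%, each lower in KO and in fatty acid oxidation. The counts below are at an unadjusted p under 0.05, where 8.92% of all tested genes were higher and 8.04% lower in KO. Exon length moved with this contrast: the median log2 fold change was -0.08 in the fifth of genes with the shortest exons and 0.09 in the fifth with the longest. Each count is therefore also given with offsets for length and GC content where these move a count of 4 or more by over 1.5 times. Counts of 1 or 2 genes moved by at most 2 as 1 mouse was left out. The part of length in the lists' counts was otherwise not tested.

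PGC-1 partners and regulators stood on the higher side in KO mice. Of 36 tested genes 13 were higher and 0 lower, with a median log2 fold change of 0.11 beside -0.0027 over all tested genes. They include Hcfc1, which encodes host cell factor 1, a protein that PRC binds, at 127 ± 4.66 CPM in the KO group against 113 ± 6.57 CPM in the WT group (mean ± SD, n = 5), 0.17 on the log2 scale (SE 0.0529, adjusted p 0.17 by edgeR). On the lower side the smallest p was that of Rxrb, a retinoid receptor partner, with -0.08 (SE 0.0432). Offsets for length and GC reduced the 13 to 6, in a list whose median exon length is 5894 bases against 3787 over all tested genes. The count was 5 without KO replicate 1, 6 without WT replicate 1, 8 without WT replicate 2 and 9 without KO replicate 5.

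Genes of the mitochondrial ribosome, which translates the proteins encoded by mitochondrial DNA, stood on the lower side. Of 78 tested genes 25 were lower and 0 higher, with a median log2 fold change of -0.12, and 2 of 78 had a value above 0. Mrps16 was at 15.4 ± 0.997 CPM in the KO group against 18.2 ± 2.03 CPM in the WT group (mean ± SD, n = 5), -0.28 on the log2 scale (SE 0.0708, adjusted p 0.134 by edgeR), and Mrps25, with the smallest p on the other side, had 0.05 (SE 0.0509). With the offsets 17 of 78 were lower, and without WT replicate 1 there were 14. Leaving out KO replicate 5 left 18. The median exon length of the list is 2394 bases.

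Fatty acid oxidation, the pathway most closely tied to PGC-1alpha and the ERR receptors, had 9 of 21 tested genes lower and 0 higher, with a median of -0.11. Acaa2, the thiolase of the last step, was at 105 ± 7.37 CPM in the KO group against 124 ± 6.34 CPM in the WT group (mean ± SD, n = 5), -0.26 on the log2 scale (SE 0.0526, adjusted p 0.0911 by edgeR). On the higher side the smallest p was that of Ucp3 with 0.07 (SE 0.126). The count was 10 with the offsets and 11 without KO replicate 5, but 5 without KO replicate 2 and 5 without WT replicate 5. Of 9 alveolar type 2 cell markers 6 were lower, or 3 with the offsets, 5 without KO replicate 5, and 2 without KO replicate 2 or WT replicate 4, summing to 24400 to 27800 CPM in KO and 25400 to 30100 CPM in WT mice. Their part in the counts of the lists was not tested.

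Cytochrome c and cytochrome oxidase assembly genes had 7 of 21 lower and 2 higher, with a median of -0.12. With the offsets 2 were lower, and the count was 2 without KO replicate 1, 3 without KO replicate 5 and 1 without WT replicate 1. Cyc1, the cytochrome c1 subunit, had -0.19 on the log2 scale (SE 0.0659, adjusted p 0.195 by edgeR). Cox20, a chaperone of cytochrome oxidase assembly, went the other way, at 8.99 ± 0.889 CPM in the KO group against 6.93 ± 0.474 CPM in the WT group (mean ± SD, n = 5), 0.37 on the log2 scale (SE 0.0916, adjusted p 0.132 by edgeR).

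The lists nearest to Tfam in function had smaller median shifts than the PGC-1 partners, mitochondrial ribosome, fatty acid oxidation and cytochrome lists. Of 28 genes of mitochondrial DNA replication and transcription 6 were lower and 1 higher, with a median of -0.02, and the 6 became 2 without KO replicate 1 and 3 without WT replicate 1. Dguok, which supplies deoxynucleotides to mitochondria, had -0.15 (SE 0.0498), and Slc25a36, a pyrimidine nucleotide carrier, had 0.17 (SE 0.0653), with edgeR adjusted p of 0.19 and 0.232. Mitochondrial RNA processing had 1 of 20 lower, Supv3l1, a helicase, with -0.20 (SE 0.0631), and 0 higher. Translation factors and tRNA synthetases had 4 of 30 lower and 0 higher, Hars2 among them with -0.17 (SE 0.0573), and 2 lower without KO replicate 1.

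Mitochondrial protein import had 5 of 37 genes lower and 1 higher, with a median of -0.06. The receptor Tomm22 had a log2 fold change of -0.18 (SE 0.0538), and Timm23, the channel of the inner membrane, had 0.24 (SE 0.0687), each with an edgeR adjusted p of 0.157. The 5 became 3 without WT replicate 1 and 8 without WT replicate 4. Fusion, fission and mitophagy had 4 of 21 lower and 0 higher, Fis1 among the lower with -0.19 (SE 0.0535), and 2 lower without KO replicate 2. Antioxidant defence had 4 of 11 lower and 0 higher, Gpx4 among them with -0.17 (SE 0.066). The 4 became 2 with the offsets, 1 without WT replicate 1, and 2 without KO replicate 1, KO replicate 2 or WT replicate 2. Nucleolar ribosome biogenesis had 1 of 34 higher, Ddx21 with 0.12 (SE 0.0455), and 1 lower, Polr1d with -0.14 (SE 0.0531).

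**Figure D5:**
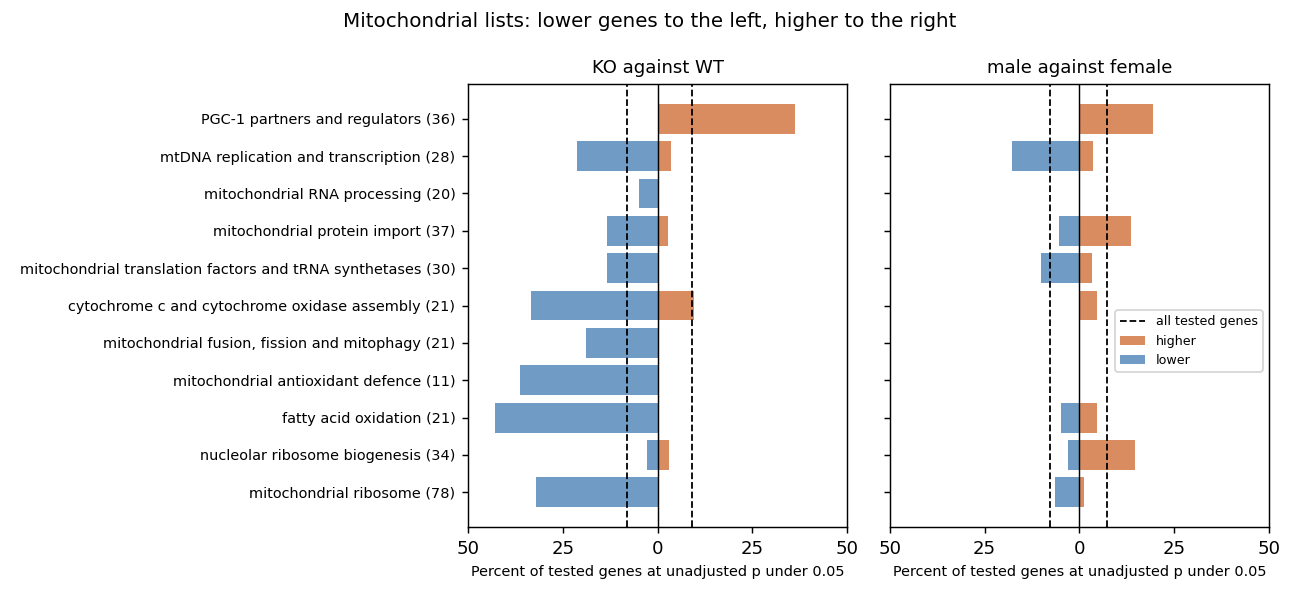
Percent of the tested genes of each list that were higher (right, orange) or lower (left, blue) at an unadjusted p under 0.05, for KO against WT and male against female; dashed lines give the same percent over all tested genes, and the number of tested genes is in brackets. Between the genotypes the PGC-1 partners lie to the right (13 of 36) and the mitochondrial ribosome to the left (25 of 78).

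Between the sexes edgeR called 3 genes of the 11 lists, beside 0.583% of all tested genes, and DESeq2 called 7, beside 2.42%. Whether the lists exceed these shares was not tested. The 3 were higher in males: 2 of 37 tested genes of protein import and 1 of 30 of translation factors and tRNA synthetases. Hspd1, the chaperonin HSP60, was at 179, 176 and 127 CPM in the males and between 94.2 and 117 CPM among the 7 females, without overlap. Its log2 fold change was 0.60 (SE 0.0985, adjusted p 0.0197 by edgeR). It was called in 14 of 17 alternatives.

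Grpel2, a nucleotide exchange factor of the mitochondrial HSP70, was at 40.6, 41.9 and 41.9 CPM in the males and between 30.8 and 37.1 CPM among the females. On the log2 scale males were higher by 0.33 (SE 0.062, adjusted p 0.03 by edgeR), called in 9 of 17 alternatives. Ears2, the glutamyl-tRNA synthetase of mitochondria, was at 8.58, 8.05 and 7.99 CPM in the males and between 5.77 and 6.77 CPM among the females. The difference on the log2 scale was 0.44 (SE 0.086, adjusted p 0.0368 by edgeR), called in 8 of 17 alternatives. Without KO replicate 1 none of the 3 was called (edgeR adjusted p 0.204, 0.114 and 0.223), and without KO replicate 5 only Hspd1 was (0.022, 0.0549 and 0.0596). Heat shock chaperones were higher in the same males, and their part in these calls was not tested.

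At an unadjusted p under 0.05, 7.34% of all tested genes were higher and 7.79% lower in males. PGC-1 partners had 7 of 36 higher and 0 lower, with a median log2 fold change of 0.10 beside -0.01 over all tested genes. The 7 became 2 without KO replicate 1, 3 without WT replicate 1, 11 without WT replicate 2 and 13 without WT replicate 4. The mitochondrial ribosome had 1 of 78 higher and 5 lower, with a median of -0.04, and the 5 ran from 0 to 11 as 1 mouse was left out: 3 without KO replicate 1, 0 without WT replicate 1, 11 without WT replicate 2, 2 without WT replicate 3 and 8 without WT replicate 4. Fatty acid oxidation had 1 of 21 on either side.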

How the data were processed

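The authors deposited 1 table of unnormalized estimated counts per gene for the 10 mice. Libraries came from a stranded mRNA kit and gave short single reads, per the labels' protocols, and the submitters' processing notes name FastQC, MultiQC, STAR 2.6.0 and Salmon 0.9.1 and the builds mm10 and GRCm38. The annotation, the strand setting and the role of each tool are not given in the sources used here. Each table column belonged to 1 mouse, and 0 columns were left without one. Genotype and sex came from the labels, and replicate numbers follow sample order.

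Counts were rounded to whole numbers. Of 47333 identifiers, 47281 matched GENCODE M21 (GRCm38), which gave symbols, coordinates and exon lengths (union of exons). filterByExpr (grouped by genotype, minimum count 10, minimum total 15) kept 18024 genes. Sex was not used in this filter, so genes expressed only in males could be removed before the sex test. edgeR 4.0.16 (R 4.3.3; TMM scaling, robust quasi-likelihood fit, genotype and sex as additive terms) gave log2 fold changes, standard errors and Benjamini-Hochberg adjusted p, called under 0.05. A test planned for raw counts was thus run on rounded estimated counts. The floor of 3 counts equals 0.104 to 0.143 CPM and covers counting error only. Correlations used log2 CPM with a prior count of 2 and 100000 resamples. Alternatives were DESeq2 1.42.0 (without independent filtering) and its size factors, limma-voom (limma 3.58.1), no filter, no robust fit, 1 covariate dropped, females alone, an adjusted p under 0.1 and leaving out each mouse. Offsets for exon length and GC content (lowess, span 0.3) were added after seeing the data. The code was tested on simulated data.

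The members and lists were chosen with earlier results of these data known. Named genes are the members, Bpifb1, the genes beside Pprc1, the genes of each list with the smallest p in each direction between the genotypes or called in either comparison, and the 5 genes most like Pprc1 and Ppargc1a. Marker genes, and the genes that overlap Esrra and Gabpa, were named besides.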

Additional observations from a re-analysis of the deposited data

How the results depend on the processing

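The count of genes called between the genotypes was 4, and it became 57 at an adjusted p under 0.1, 50 without a filter on low counts, 346 with DESeq2 and 2 with limma-voom, and ran from 2 to 18 as each mouse was left out (18 without WT replicate 3). Between the sexes it was 105, and it became 351 at an adjusted p under 0.1, 197 without a filter, 436 with DESeq2, 250 with offsets for length and GC content (chosen after seeing the data) and 41 without the genotype term. It ran from 0 to 195 as each mouse was left out. The 0 came without KO replicate 1, when edgeR still had 923 genes higher and 996 lower in males at an unadjusted p under 0.05; DESeq2 was not run on those 9 mice. It was 46 without KO replicate 2, 43 without WT replicate 2 and 195 without WT replicate 4.

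The log2 fold change of Pprc1 between the sexes was 0.27 with limma-voom (adjusted p 0.0527) and 0.20 without the genotype term (adjusted p 0.528), and 0.25 to 0.29 as each mouse was left out (edgeR adjusted p 0.0438 to 0.265), losing its call in 9 of 10 cases. That of Nrf1 turned to -0.0052 with the offsets and ran from -0.0025 to 0.0873 as each mouse was left out. The cause of these shifts was not tested. The log2 fold changes of Pprc1, Ppargc1a, Esrra, Gabpa and Tfam kept their sign in every alternative of both comparisons. No paired analysis was possible because replicate numbers follow sample order and pair no mice. At 32 to 62 counts, Ppargc1b is limited by depth. In 21 sets of values, 3 for each member, no mouse stood apart by Dixon's test, where about 1 would by chance.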
